A study of Mus musculus with 8 samples.

Results

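The genes described here are 9 transcription factors and cofactors that set muscle identity: the myogenic regulatory factors *Myod1*, *Myf5* and *Myf6*, the paired-box factor *Pax7*, the MEF2 factors *Mef2a*, *Mef2c* and *Mef2d*, and the sine oculis and EYA family pair *Six4* and *Eya1*. They were taken by name from the deposited table of read counts, and all 9 were found among its 32390 rows. Bulk RNA-seq had been done on gastrocnemius muscle of 4 control mice (*Nox4* fl/fl, with floxed *Nox4* alleles and no Cre named in the labels) and 4 NOX4-deficient mice (MckCre:*Nox4* fl/fl), and so both groups carried the floxed alleles. The Cre is driven by the muscle creatine kinase promoter, which is active in differentiated skeletal muscle fibers and, less strongly, in heart, and not in the satellite cells, vessels, nerves and immune cells of the same muscle. The mice were males of 21 months on standard chow, given no other treatment in the labels, which place all 8 libraries in 1 batch. The comparison asks how the factors that build and maintain muscle fibers are expressed in old muscle of mice labelled as lacking fiber *Nox4*, which encodes an NADPH oxidase that makes hydrogen peroxide.

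The myogenic regulatory factors are basic helix-loop-helix proteins that bind E-boxes as dimers with E proteins and switch on the genes of the contractile apparatus. *Myf5* and *Myod1* commit cells to the lineage, *Myog* drives differentiation, and *Myf6*, also called MRF4, is the member that stays abundant in adult fibers. *Pax7* marks satellite cells, the stem cells that lie along the fibers. MEF2 proteins act with the myogenic factors and are held in check by class IIa histone deacetylases, and sine oculis homeobox (So) proteins bind DNA and recruit EYA proteins to drive the myogenic factors in the embryo and fast-fiber genes in the adult.

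Libraries held between 16350548 and 19804661 counts. Levels are given in CPM, counts scaled to the size of each library with TMM factors from edgeR, and errors are SDs over 4 mice. A gene was called when the adjusted p (quasi-likelihood F test of edgeR, with p-values adjusted after Benjamini and Hochberg across 12725 rows) was under 0.05 and the absolute log2 fold change was over 0.5. Fold changes are NOX4-deficient over control. The targeted gene, *Nox4*, was counted 85, 48, 35 and 70 times in control libraries 1 to 4 and 29, 43, 42 and 37 times in NOX4-deficient libraries 1 to 4. In 3 of the 4 NOX4-deficient libraries it lay above the lowest control in CPM, and it was not called (log2 fold change -0.65, SE 0.29, edgeR adjusted p = 0.207). With 1 library left out this ranged from -0.82 (without control replicate 3) to -0.36 (without control replicate 1). All 4 NOX4-deficient mice lay under the control mean, and the unadjusted p was 0.0461 (edgeR quasi-likelihood F test). A lower *Nox4* level was thus not shown at the adjusted threshold in these libraries, and the groups are those of the labels. The counts cover the whole gene in all cells of the muscle, so loss from fibers alone could not be read from them. By qPCR the study reported *Nox4* largely lost from muscle of younger mice of this genotype. The 10 genes that define skeletal muscle fibers summed to between 100019 and 125430 CPM in control and between 104332 and 122195 CPM in NOX4-deficient libraries, and edgeR called 0 of them, with 0 at an unadjusted p under 0.05 and 0 by DESeq2 or pydeseq2.

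All 9 factors passed the filter on low counts, and 1, *Myf6*, was called. It fell to a level 55.4% lower in mean than in control. Across the table, 6.16% of rows were called, 3.48% lower and 2.68% higher. DESeq2 and pydeseq2 called *Six4* lower as well as *Myf6*. The log2 fold change was below 0 for 7 of the 9 factors, beside 47.7% of all rows tested, and 6 had an unadjusted p under 0.05, beside 23.2% of all rows. The groups did not overlap for 2 of the 9, *Myf6* and *Mef2d*, both lower, beside 16.2% of all rows (8.97% lower and 7.2% higher). The median log2 fold change was -0.29 over the 9 and 0.01 over all rows tested.

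**Figure D1:**
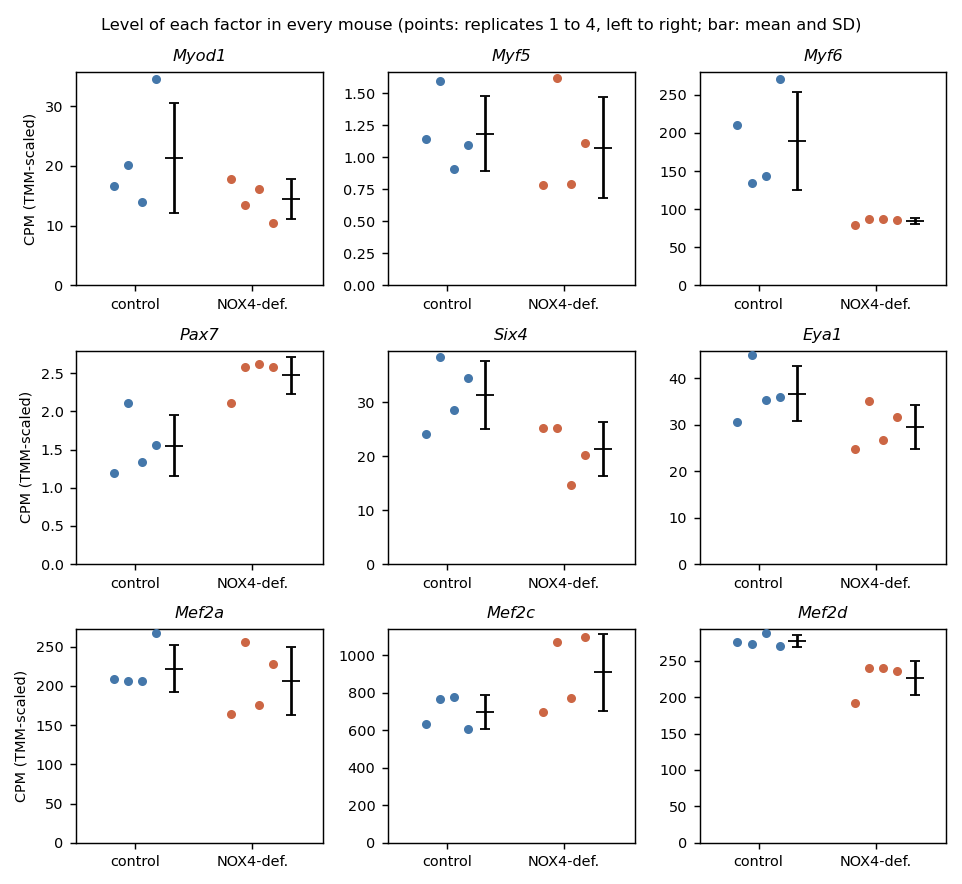
TMM-scaled CPM of the 9 factors (vertical axes, each starting at 0) in each control and NOX4-deficient mouse, with points for replicates 1 to 4 from left to right and a bar for the mean and SD of 4. *Myf6* is at 134 CPM or more in every control mouse and at 86.7 CPM or less in every NOX4-deficient mouse, and the *Mef2d* groups are also apart.

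*Myf6*, the myogenic regulatory factor of adult fibers, was at 211, 134, 143 and 270 CPM in control replicates 1 to 4. In NOX4-deficient replicates 1 to 4 it was at 79.7, 86.7, 86.6 and 85.6 CPM. The lowest control mouse thus lay above the highest NOX4-deficient mouse, and the NOX4-deficient mice were close together while controls 1 and 4 were high. Mean levels were 190 ± 63.9 CPM for control and 84.6 ± 3.35 CPM for NOX4-deficient muscle, with a coefficient of variation of 33.7% and 3.96%. The log2 fold change was -1.16 (SE 0.19, 95% interval -1.59 to -0.74, edgeR adjusted p = 0.00521), a level 2.24-fold lower. By exact permutation of the CPM values (two-sided) p was 0.0286, the lowest value that groups of 4 and 4 can give. In these bulk samples fewer cells of a type and less RNA per cell cannot be told apart.

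Control replicate 4, the highest for *Myf6*, also had the highest summed CPM of 11 fasting-responsive genes, 6478 CPM. That sum ran from 4233 to 6478 CPM in control and from 1195 to 1978 CPM in NOX4-deficient libraries, and 9 of the 10 tested were called lower. The part of that difference in the *Myf6* result was not tested. Without control replicate 4 the *Myf6* log2 fold change was -0.94 (edgeR adjusted p = 0.00502), and it was called with each of the 8 libraries left out in turn (-1.30 to -0.94).

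The 4 myogenic regulatory factors are paralogs, and whether any read was counted for the wrong one was not tested. A stretch where they are alike is shown. It is 60 coding bases of each gene inside the basic helix-loop-helix region, in exon 1 of 3. The bases are aligned to the same codons and written 5′ to 3′ on the coding strand. Sequences and positions are from GRCm38 with GENCODE M21, and capitals mark the 43 bases (71.7%) that are the same in all 4 genes. The stretch lies at chr7:46377087-46377146 (plus strand) for *Myod1*, chr10:107485536-107485595 (minus strand) for *Myf5*, chr10:107494279-107494338 (minus strand) for *Myf6* and chr1:134290386-134290445 (plus strand) for *Myog*.
Myod1: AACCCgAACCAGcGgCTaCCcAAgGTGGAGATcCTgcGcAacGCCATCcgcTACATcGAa
Myf5: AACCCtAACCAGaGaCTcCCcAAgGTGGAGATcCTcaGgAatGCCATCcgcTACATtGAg
Myf6: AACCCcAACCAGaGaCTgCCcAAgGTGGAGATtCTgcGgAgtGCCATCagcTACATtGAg
Myog: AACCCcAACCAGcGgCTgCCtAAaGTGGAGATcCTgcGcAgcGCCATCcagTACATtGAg
Over whole coding sequences the longest run shared by *Myod1* and *Myf5* was 26 bases and their best-matching window of 150 bases, the read length, was 82% identical, and for *Myod1* and *Myog* these values were 21 bases and 75.3%. The longest run shared by *Myf6* and any of the other 3 was 14 bases, and its best windows were 71.3% to 76.7% identical. *Myf5* and *Myf6* lie next to each other on chromosome 10 on the same strand, and no other gene of the annotation overlaps an exon of either.

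*Myod1*, the lineage factor that also marks activated satellite cells and fast fibers, was at 16.7, 20.2, 13.9 and 34.5 CPM in control mice. NOX4-deficient mice had 17.9, 13.5, 16.1 and 10.4 CPM. The groups overlapped, and control replicate 4 stood above all other mice. The *Myod1* log2 fold change was -0.56 (SE 0.27, 95% interval -1.16 to 0.03, edgeR adjusted p = 0.244), and the exact permutation p was 0.171. Without control replicate 4 it was -0.23 (edgeR adjusted p = 0.577), so this 1 library set most of the size of the difference. Among replicates with odd numbers the difference in mean log2 CPM was 0.15, and among those with even numbers, which include control replicate 4, it was -1.15. Replicate numbers have no known meaning in the design, so no subgroup was inferred from this contrast.

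*Myf5*, the other commitment factor, was close to the lower limit of what these libraries measure. Its counts were 19, 31, 17 and 21 in control and 13, 32, 15 and 19 in NOX4-deficient mice. The groups overlapped throughout, and the log2 fold change was -0.13 (SE 0.33, 95% interval -0.84 to 0.58, edgeR adjusted p = 0.856). The sign turned without control replicate 2 (0.05) and without NOX4-deficient replicate 3 (0.01), and a difference between the genotypes was not detectable at this depth.

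*Myog*, the differentiation factor, was no member but completes the family. It was at 18.9, 10.9, 3.96 and 7.69 CPM in control and at 4.45, 4.50, 3.99 and 3.81 CPM in NOX4-deficient mice. Control replicate 3 lay inside the narrow NOX4-deficient range, and the other controls lay above it. The log2 fold change was -1.30 (SE 0.39, edgeR adjusted p = 0.0686), past the threshold in pydeseq2 (adjusted p = 0.0048). As a share of the summed CPM per kilobase of the 4 genes, *Myf6* took 88.6% ± 2.82 in control and 85.8% ± 2.35 in NOX4-deficient muscle, and *Myod1* 6.81% ± 1.76 and 9.96% ± 2.29. These ranges overlapped between the groups. The *Myf6* share was between 83.0% and 91.5% in each library, so *Myf6* was the main transcript of the family in every mouse.

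*Pax7*, the satellite cell factor, had the only positive log2 fold change past 0.5 among the 9. Its counts were 20, 41, 25 and 30 in control and 35, 51, 50 and 44 in NOX4-deficient mice. In CPM these were 1.20, 2.11, 1.34 and 1.56 in control and 2.11, 2.58, 2.63 and 2.58 in NOX4-deficient mice. NOX4-deficient replicate 1 was level with control replicate 2, and the other 3 NOX4-deficient mice lay above every control. The means were 1.55 ± 0.401 and 2.47 ± 0.246 CPM, and the log2 fold change was 0.67 (SE 0.24, 95% interval 0.14 to 1.19, edgeR adjusted p = 0.117). The exact permutation p was 0.0571, and with each library left out the log2 fold change ranged from 0.56 to 0.85 without reaching a call.

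Of the 20 satellite cell markers listed beside *Pax7*, 18 were tested and 12 had a positive log2 fold change, with a median of 0.21. The markers summed to between 440 and 518 CPM in control and between 452 and 477 CPM in NOX4-deficient libraries, so their total lay inside the control range. The largest part was *Itgb1*, which many other cells make, with means of 246 and 220 CPM, so the sum does not measure satellite cell number. Among the markers edgeR called 1 and DESeq2 and pydeseq2 each called 2, all lower. The gene called by edgeR was *Sdc4*, a heparan sulfate proteoglycan of satellite cells that other cells also make. It was at 57.4, 45.0, 44.8 and 66.5 CPM in control and at 27.7, 25.6, 19.1 and 25.1 CPM in NOX4-deficient mice. It fell by 1.13 on the log2 scale (edgeR adjusted p = 0.00132), in the direction opposite to that of *Pax7*. The laminin receptor subunit *Itga7*, which fibers also express, had a log2 fold change of 0.45 (edgeR adjusted p = 0.012), under the fold threshold. *Chrdl2* was at -1.07 without overlap of the groups (adjusted p = 0.0622, past the threshold in pydeseq2 at 0.0401), *Cxcr4* at 0.96 (0.109), *Vcam1* at 0.55 (0.202) and M-cadherin, *Cdh15*, at -0.05 (0.872), all not called by edgeR.

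Among 14 markers of myoblasts and regenerating fibers, 10 were tested and 1 was called, the embryonic myosin *Myh3*. It rose from 1.96 ± 0.445 to 4.77 ± 1.12 CPM (log2 fold change 1.28, edgeR adjusted p = 0.00807), and every NOX4-deficient mouse (3.21 to 5.78 CPM) lay above every control mouse (1.61 to 2.58 CPM). The perinatal myosin *Myh8* had a log2 fold change of 0.08 (adjusted p = 0.891). Of the 10 tested, 4 were negative and 6 positive, with a median of 0.06. DESeq2 and pydeseq2 each called 1 lower and 2 higher. In pydeseq2 the lower one was *Myog*, and the higher ones were *Myh3* and *Myl4* (log2 fold change 0.99, edgeR adjusted p = 0.148, pydeseq2 adjusted p = 0.0394). Of 12 proliferation markers 4 were tested, and edgeR called 0, with 0 at an unadjusted p under 0.05 and 0 by DESeq2 or pydeseq2.

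**Figure D2:**
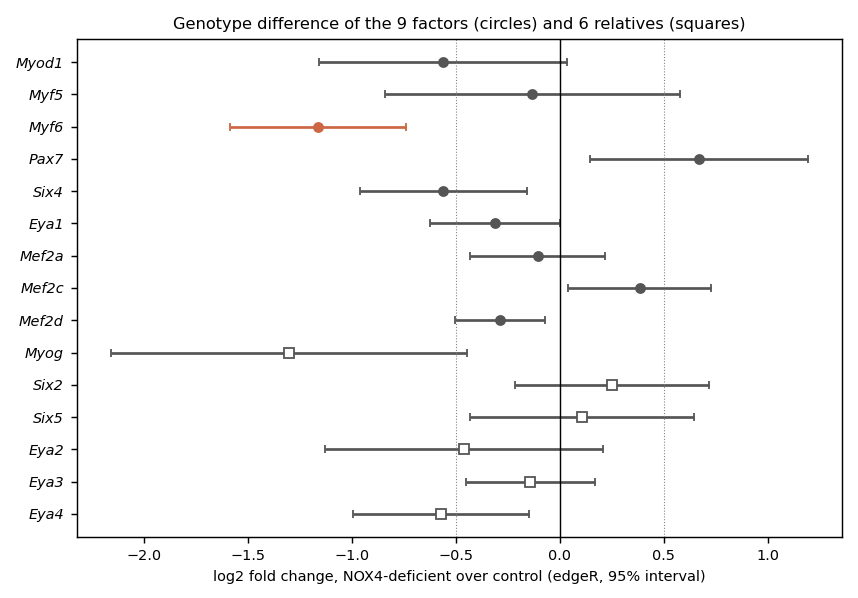
Log2 fold change (NOX4-deficient over control, horizontal axis, edgeR, with 95% intervals) of the 9 factors (circles) and 6 tested relatives (squares), with dotted lines at the fold threshold of 0.5 in each direction. *Myf6*, in red, was the only one called, and the *Pax7* and *Mef2c* intervals lie above 0.

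*Six4*, which binds DNA and recruits EYA cofactors, was at 24.2, 38.4, 28.6 and 34.5 CPM in control. It was at 25.3, 25.1, 14.7 and 20.2 CPM in NOX4-deficient mice. NOX4-deficient replicates 3 and 4 lay under every control, and replicates 1 and 2 lay just above the lowest control. Its fitted log2 fold change was -0.56 (SE 0.19, 95% interval -0.96 to -0.16, edgeR adjusted p = 0.0888). The call depended on the tool, because DESeq2 (adjusted p = 0.0467) and pydeseq2 (adjusted p = 0.0487) called it lower.

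*Eya1*, a cofactor and phosphatase that works with So proteins, was at 30.6, 44.9, 35.2 and 35.9 CPM in control and at 24.7, 35.1, 26.7 and 31.5 CPM in NOX4-deficient mice. The ranges overlapped, although all 4 NOX4-deficient mice lay under the control mean. Its log2 fold change was -0.31 (SE 0.14, 95% interval -0.62 to -0.00178, edgeR adjusted p = 0.213). Over the 8 libraries the Pearson correlation of log2 CPM between *Six4* and *Eya1* was 0.74, a value that holds the genotype difference as well as variation among mice.

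A further 11 members of the same families were listed, and 7 were tested. EdgeR called 0 of them, with 2 at an unadjusted p under 0.05, and DESeq2 and pydeseq2 each called 2 lower, *Myog* and *Eya4*. *Eya4*, a further EYA cofactor, was at 83.3, 97.8, 102 and 148 CPM in control and 58.4, 98.2, 64.1 and 69.4 CPM in NOX4-deficient mice. NOX4-deficient replicate 2 lay within the control range, and the other 3 lay below it. In log2 terms the difference was -0.57 (edgeR adjusted p = 0.0997, pydeseq2 adjusted p = 0.0463). *Eya2* was at -0.46 (edgeR adjusted p = 0.409), *Eya3* at -0.14 (0.6), *Six2* at 0.25 (0.529) and *Six5* at 0.11 (0.844). *Pax3*, *Mef2b*, *Six3* and *Six6* had too few counts to be tested.

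Of the 7 So/EYA co-regulators, all tested, 1 was called higher. *Sobp*, which encodes a cofactor of So proteins, rose from 31.1 ± 7.36 to 56.9 ± 3.50 CPM (log2 fold change 0.87, edgeR adjusted p = 0.00602). The corepressors *Dach1* and *Dach2* were at 0.69 (adjusted p = 0.183) and -0.01 (adjusted p = 0.995). Of 16 genes listed as So/EYA targets in fast fibers, edgeR called 0, with 2 at an unadjusted p under 0.05. DESeq2 and pydeseq2 each called 1 lower and 1 higher. In pydeseq2 the lower one was *Myog*, the differentiation factor already counted among the relatives. The higher one was *Casq1* (log2 fold change 0.51, edgeR adjusted p = 0.0897, pydeseq2 adjusted p = 0.0414). The fast myosins *Myh4* and *Myh1* had log2 fold changes of 0.09 (edgeR adjusted p = 0.71) and -0.39 (0.453), and the parvalbumin gene *Pvalb* 0.27 (0.44).

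*Mef2c*, the MEF2 gene known to be needed for the integrity of fibers after birth, was at 635, 768, 779 and 607 CPM in control and 697, 1069, 771 and 1099 CPM in NOX4-deficient mice. NOX4-deficient replicates 2 and 4 lay above every control, and replicates 1 and 3 lay within the control range. Mean levels were 697 ± 89.0 CPM for control and 909 ± 204 CPM for NOX4-deficient muscle. The *Mef2c* log2 fold change was 0.38 (SE 0.16, 95% interval 0.04 to 0.73, edgeR adjusted p = 0.17), and the exact permutation p was 0.143. The difference in mean log2 CPM was 0.06 between odd-numbered and 0.67 between even-numbered replicates. Replicate numbers have no known meaning in the design, so this contrast describes spread among mice and no subgroup was inferred. It is given only for *Myod1* and *Mef2c*, the factors in which it was widest.

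*Mef2d* was the most even of the factors among controls, at 276, 272, 288 and 270 CPM. The NOX4-deficient mice had 192, 240, 240 and 236 CPM. Every NOX4-deficient mouse lay under every control, and replicate 1 was lowest. Its log2 fold change was -0.29 (SE 0.10, 95% interval -0.50 to -0.07, edgeR adjusted p = 0.105), with an exact permutation p of 0.0286. DESeq2 gave an adjusted p of 0.042 and pydeseq2 one of 0.0455, but the size stayed under the fold threshold. An antisense transcript, *1700113A16Rik*, overlaps 531 exon bases of *Mef2d* (8.87%), and in unstranded libraries reads of the pair cannot be told apart there.

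*Mef2a* was at 208, 206, 207 and 267 CPM in control and 164, 257, 175 and 228 CPM in NOX4-deficient mice. The groups overlapped, with control replicate 4 the highest of all. Its log2 fold change was -0.11 (SE 0.15, 95% interval -0.43 to 0.22, edgeR adjusted p = 0.718), and the exact permutation p was 0.6. *Lysmd4* lies on the opposite strand and shares 302 exon bases (2.06%) with it.

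The makeup of the MEF2 family is given here as a description, with an exact permutation test planned for the *Mef2c* share only. Neither *Mef2c* nor *Mef2d* was called on its own level. As a share of the summed CPM per kilobase of *Mef2a*, *Mef2b*, *Mef2c* and *Mef2d* in each library, *Mef2c* made up 53.3%, 58.3%, 57.7% and 49.6% in control and 63.0%, 65.2%, 61.7% and 67.3% in NOX4-deficient mice. No NOX4-deficient mouse was as low as any control. The mean share went from 54.7% ± 4.08 to 64.3% ± 2.46, a difference of 9.61 percentage points. The share of *Mef2d* went from 25.3% ± 1.22 to 19.1% ± 2.64, also without overlap, and that of *Mef2a* from 19.9% ± 3.40 to 16.6% ± 0.897, with overlap. By exact two-sided permutation p was 0.0286 for the shares of *Mef2c* and *Mef2d*, the lowest value possible, and 0.0857 for that of *Mef2a*. The shares add up to a whole and so are not independent of each other. With the union of all exons in place of the longest transcript, *Mef2c* took 41.8% in control and 52.3% in NOX4-deficient muscle, and with counts not divided by length 58.1% and 67.4%, so the level of the share depended on the length used while its difference was 9.32 to 10.5 points. The longest run of coding bases shared by *Mef2c* and *Mef2d* was 28 bases, with 90% identity in the best window of 150 bases.

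**Figure D3:**
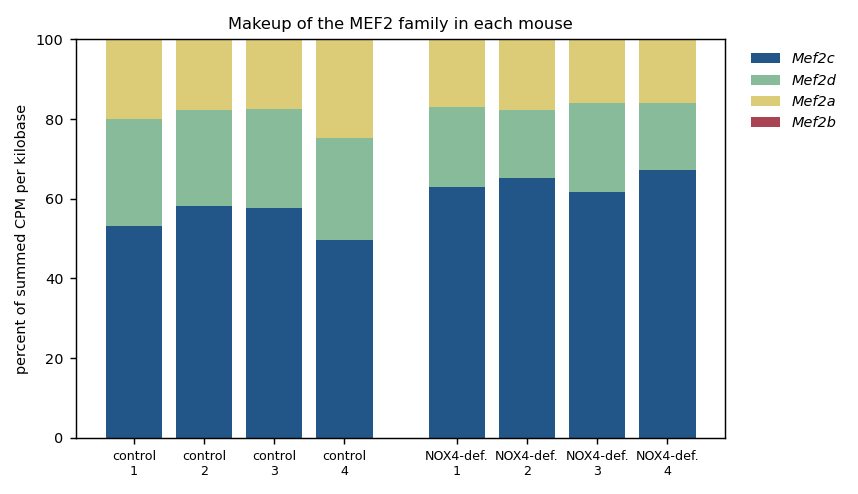
Share of each MEF2 gene in the summed CPM per kilobase of the family (percent, vertical axis from 0 to 100) in each of the 8 mice. *Mef2c* makes up 49.6% to 58.3% in control mice and 61.7% to 67.3% in NOX4-deficient mice, while *Mef2b* is too low to be seen.

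The activity of MEF2 proteins is also set by the proteins that bind or modify them. Of 30 listed co-regulators 28 were tested, 14 with a negative and 14 with a positive log2 fold change, and the median was 0.00180. In all, edgeR called 2 lower and 1 higher, pydeseq2 3 lower and 1 higher and DESeq2 4 lower and 1 higher. *Sik1*, a kinase that phosphorylates class IIa deacetylases, was among the tool-dependent ones, at -0.86 without overlap of the groups (edgeR adjusted p = 0.0697, pydeseq2 adjusted p = 0.00908). *Hdac4*, a class IIa histone deacetylase that represses MEF2, was at 81.3, 95.2, 75.6 and 72.9 CPM in control and at 31.3, 48.1, 35.3 and 46.6 CPM in NOX4-deficient mice. It fell in every NOX4-deficient mouse below the lowest control, by 1.01 on the log2 scale (SE 0.15, edgeR adjusted p = 0.00203).

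*Hdac9*, a class IIa deacetylase that is both a MEF2 repressor and a MEF2 target, went the other way. It was at 1.80, 2.88, 2.78 and 2.65 CPM in control and at 9.14, 10.7, 8.78 and 12.1 CPM in NOX4-deficient mice. The lowest NOX4-deficient mouse was above the highest control by a wide gap, and the log2 fold change was 2.00 (SE 0.19, edgeR adjusted p = 0.000108). The calls of *Hdac4* and *Hdac9* held with each of the 8 libraries left out. The other class IIa genes, *Hdac5* at -0.06 (adjusted p = 0.772) and *Hdac7* at -0.01 (adjusted p = 0.974), had differences near 0.

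*Vgll2*, a TEAD cofactor of skeletal muscle that can also work with MEF2, fell from 53.3 ± 13.3 to 28.5 ± 7.09 CPM (log2 fold change -0.90, edgeR adjusted p = 0.0222). The groups overlapped in 1 mouse each, control replicate 4 at 36.3 CPM and NOX4-deficient replicate 4 at 37.9 CPM. The call held in 3 of the 8 fits that left out 1 library, and was lost without control replicate 1 or 2 or NOX4-deficient replicate 1, 2 or 3 (adjusted p up to 0.0685). The calcium/calmodulin kinases that move class IIa deacetylases out of the nucleus had small positive values, *Camk2a* at 0.43 (edgeR adjusted p = 0.0288) and *Camk2b* at 0.38 (0.0454), both under the fold threshold. The acetyltransferase *Crebbp* was at -0.41 (0.0407), also under it.

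**Figure D4:**
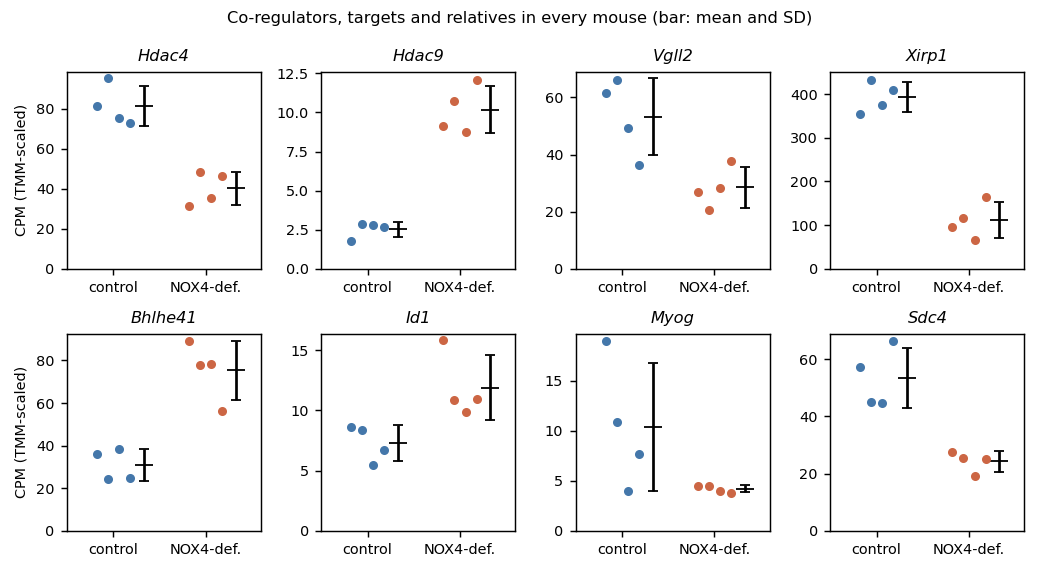
TMM-scaled CPM (vertical axes, each starting at 0) of 8 co-regulators, targets and relatives in each mouse, with points for replicates 1 to 4 and a bar for the mean and SD of 4. *Hdac4*, *Xirp1* and *Sdc4* are lower and *Hdac9*, *Bhlhe41* and *Id1* higher in every NOX4-deficient mouse than in every control, whereas *Vgll2* and *Myog* overlap.

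Of 16 genes known as MEF2 targets in muscle, all tested, edgeR called 2 lower and 1 higher, DESeq2 and pydeseq2 each called 3 lower and 1 higher, and the median log2 fold change was 0.01. The gene called higher was *Hdac9*. *Xirp1*, which encodes an actin-binding protein of the intercalated disc and of remodeling fibers, was at 354, 432, 376 and 408 CPM in control and at 96.1, 116, 67.0 and 165 CPM in NOX4-deficient mice. It fell by 1.83 on the log2 scale (SE 0.22, edgeR adjusted p = 0.00109) with no overlap. *Klf15*, a Kruppel-like factor of amino acid metabolism that is also responsive to glucocorticoids, fell from 49.3 ± 7.62 to 30.0 ± 6.19 CPM (-0.72, adjusted p = 0.0195), and the call was lost without control replicate 3 or 4. *Ppargc1a*, the mitochondrial coactivator, was at -1.39 (edgeR adjusted p = 0.0855, past the threshold in pydeseq2 at 0.0359). The structural targets were near 0, with the skeletal actin *Acta1* at 0.12 (adjusted p = 0.673), the muscle creatine kinase *Ckm* at 0.06 (0.843), desmin, *Des*, at 0.01 (0.973) and *Myom1* at -0.15 (0.445).

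Of 16 listed targets of the myogenic regulatory factors in adult muscle, 12 were tested. EdgeR called 1, *Myh3*, and DESeq2 and pydeseq2 each called 1 lower and 1 higher. The receptor kinase of the neuromuscular junction, *Musk*, was at -1.24 without overlap of the groups (edgeR adjusted p = 0.0731, past the threshold in pydeseq2 at 0.0381), and the acetylcholine receptor subunits *Chrna1*, *Chrnb1* and *Chrne* were at 0.05 (0.906), 0.06 (0.892) and 0.36 (0.166). Denervation markers, several of which overlap these lists, had a median log2 fold change of -0.80, and 3 of the 13 tested were called lower. These were *Hdac4* and the ubiquitin ligases *Trim63* (-2.18, adjusted p = 0.00202) and *Fbxo32* (-1.62, adjusted p = 0.00887). DESeq2 and pydeseq2 each called 6 of the 13.

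Of 20 tested E proteins and inhibitors of the myogenic factors, 14 had a positive log2 fold change, beside 52.3% of all rows, and the median was 0.34. EdgeR called 2 higher and 0 lower, and DESeq2 and pydeseq2 each called 3 higher and 0 lower. *Bhlhe41*, a helix-loop-helix repressor that inhibits MyoD and belongs to the circadian clock, was at 36.0, 24.4, 38.6 and 24.6 CPM in control and at 89.2, 77.8, 78.2 and 56.3 CPM in NOX4-deficient mice. It rose without overlap (log2 fold change 1.29, SE 0.18, edgeR adjusted p = 0.00165). *Id1*, which binds E proteins and keeps them from DNA, was at 8.63, 8.39, 5.46 and 6.71 CPM in control and 15.8, 10.9, 9.83 and 10.9 CPM in NOX4-deficient mice (0.70, adjusted p = 0.043). The *Id1* call held in 2 of the 8 fits that left out 1 library, those without control replicate 1 or NOX4-deficient replicate 3.

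*Hes6*, a helix-loop-helix factor induced in differentiating myoblasts, had a log2 fold change of 0.67 (edgeR adjusted p = 0.0545, past the threshold in pydeseq2 at 0.0249). *Id3* and *Id4* were at 0.63 (edgeR adjusted p = 0.211) and 0.86 (0.195). On the negative side were the repressors *Msc* at -1.01 (0.245), *Twist1* at -0.74 (0.234) and *Zeb2* at -0.41 (0.105). The E proteins themselves were near 0, with *Tcf3* at 0.06 (0.813), *Tcf4* at -0.06 (0.824) and *Tcf12* at -0.13 (0.579).

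Markers of other cell types in the muscle were read beside the factors, and their part in the results was not tested. Smooth muscle and pericyte markers summed to between 442 and 542 CPM in control and between 549 and 679 CPM in NOX4-deficient libraries, with no overlap. EdgeR called 1 of 10 (*Smtn*, 0.81, edgeR adjusted p = 0.00248), DESeq2 and pydeseq2 each called 3 higher, and 5 had an unadjusted p under 0.05. *Mef2c*, *Id1* and several other genes above are also expressed in vessels. Endothelial markers summed to 318 to 389 and 352 to 385 CPM, with 1 of 10 called (*Vwf*, 0.74, adjusted p = 0.0129). Slow-fiber markers summed to 334 to 726 CPM in control, lowest in control replicate 4, and to 429 to 1281 CPM in NOX4-deficient libraries. All 9 of them were positive, with a median log2 fold change of 0.62, and edgeR called 0, as did DESeq2 and pydeseq2, with 0 at an unadjusted p under 0.05.

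Fibroblast markers had 1 of 10 called lower (*Pi16*, -0.88, edgeR adjusted p = 0.0305), a call that held in 2 of the 8 fits with 1 library left out, those without control replicate 3 or 4. Of the 10, 6 were negative and 4 positive, and 3 had an unadjusted p under 0.05. On the positive side *Col1a1* was at 0.76 (edgeR adjusted p = 0.213), *Col1a2* at 0.76 (0.17) and *Lum* at 0.71 (0.252). Of the blood markers 2 of 3 tested were called higher. Immune cell markers summed to 34.7 to 89.2 CPM in control and 22.5 to 48.8 CPM in NOX4-deficient libraries, with 0 of 9 called by edgeR and by DESeq2 and pydeseq2 and 2 at an unadjusted p under 0.05. Of these 9, 8 were negative, with a median log2 fold change of -0.44. Adipocyte, Schwann cell and tendon markers had 0 called of 7, 8 and 6 by edgeR, with 0, 2 and 1 at an unadjusted p under 0.05, and DESeq2 and pydeseq2 called 1 Schwann cell marker higher. All 8 Schwann cell and all 6 tendon markers were positive (median log2 fold changes 0.51 and 0.41), as were 5 of the 7 adipocyte markers (median 0.32). Clock genes, to which *Bhlhe41* belongs, had 3 called lower and 5 higher of 16, among them *Nfil3* (-1.72, adjusted p = 0.000596) and *Per3* (1.84, adjusted p = 0.000285). With 1 library left out 2 to 3 were called lower and 3 to 5 higher. The calls of *Nfil3* and *Per3* held in all 8 such fits, those of *Dbp* and *Ciart* in 2 each.

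Compared per kilobase of the longest transcript, the mean level in control muscle was highest for *Myf6* at 150 ± 50.6 CPM per kilobase and *Mef2c* at 111 ± 14.2, whose ranges overlapped. *Mef2d* followed at 51.2, *Mef2a* at 40.1, *Myod1* at 11.5, *Eya1* at 8.40 (overlapping *Myod1*), *Six4* at 4.61, *Myf5* at 0.568 and *Pax7* at 0.265 CPM per kilobase. In NOX4-deficient muscle *Mef2c* came first at 145 ± 32.6 and *Myf6* second at 67.0 ± 2.65 CPM per kilobase. *Mef2d* at 42.0 and *Mef2a* at 37.2 then overlapped, as did *Myod1* at 7.78 and *Eya1* at 6.76, and *Myf5* at 0.516 and *Pax7* at 0.422, with *Six4* at 3.13 between these pairs. The order at the top depended on the length used. With the union of exons *Myf6* was first in control, apart from *Mef2d* at 46.2 and *Mef2c* at 44.4, which overlapped, and in NOX4-deficient muscle *Myf6* at 67.0 and *Mef2c* at 57.8 CPM per kilobase overlapped.

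The genes whose log2 CPM over the 8 libraries was most like that of *Myf6* were *Ppme1* (Pearson r 0.99), *Mknk2* (0.99) and *Slc10a3* (0.99). They share libraries and the genotype difference with it. With both groups centred on their own means, which removes that difference, the 3 most alike were *Sox12* (0.98), *Mknk2* (0.98) and *Mpzl3* (0.97). *Mknk2*, a kinase of the translation factor eIF4E, was in both lists, at 425, 352, 375 and 504 CPM in control and 240, 243, 240 and 247 CPM in NOX4-deficient mice. As with *Myf6*, controls 1 and 4 were high and the NOX4-deficient mice close together.

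For *Mef2c* the most alike were *Desi2* (0.99), *Rnf150* (0.98) and *Msi2* (0.98), and for *Mef2d* *Atl2* (0.98), *Pcmtd2* (0.97) and *Stat3* (0.97). For *Pax7* they were *Usp46* (0.98), *Prdm9* (0.96) and *Pabir1* (0.96), and for *Myod1* *Akap8l* (0.97), *Tma16* (0.94) and *Znf346* (0.94). *Mef2a* was nearest to *Kif5b* (0.98), *Six4* to *Spag1* (0.96), *Eya1* to *Nfatc1* (0.97) and *Myf5* to *Skil* (0.96). Among the factors themselves *Myf6* went with *Mef2d* (r 0.72) and *Myod1* (0.69) and against *Pax7* (-0.81) and *Mef2c* (-0.69), while *Myf5* went with *Eya1* (0.79). These are descriptions over 8 libraries that hold the genotype difference.

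**Figure D5:**
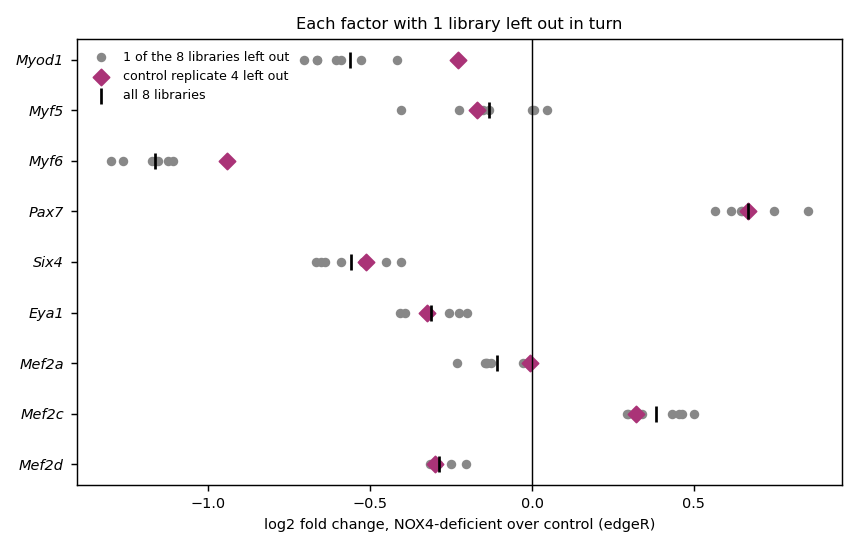
Log2 fold change of each factor (horizontal axis, NOX4-deficient over control, edgeR) with all 8 libraries (bar) and with 1 library left out in turn (gray points, or a purple diamond for control replicate 4). *Myf6* stays between -1.30 and -0.94, *Myf5* crosses 0, and *Myod1* is nearest to 0 without control replicate 4.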

How the data were processed

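Poly(A) RNA of gastrocnemius muscle had been sequenced as unstranded paired-end libraries of 150 bases. The authors deposited unnormalized read counts for each gene and mouse, made with STAR on GRCm39 per the submitters' processing notes and with the nf-core RNA-seq pipeline per the study's methods. The counter's settings are not given in the sources used here. All 8 columns matched a sample by name, 0 were left unmatched, and the table pairs no other identifier with the names. Where a name repeats (412 of 32390 rows), the row with most counts was used. All 12 pairs of replicates differed beyond sampling noise, with 13.3 to 56.6 chi-square per degree of freedom. Library totals of 16350548 to 19804661 counts set the precision, and p-values measure the spread between 4 mice a group.

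The main test was run with edgeR 4.0.16 under R 4.3.3 (TMM, filterByExpr, estimateDisp, robust glmQLFit, glmQLFTest, with genotype as the only term) over all 12725 rows tested. Thresholds are those of the study's methods, 0.05 for the adjusted p and 0.5 for the absolute log2 fold change. The common biological coefficient of variation was 0.174. The fit was also run on simulated counts, with no outcome given here. Alternatives were DESeq2 1.42.0, pydeseq2 0.5.4, other scalings, filters and thresholds, a replicate block, an odd or even replicate term, and each library left out. Exact two-sided permutation tests used SciPy 1.17.1. Lengths, overlaps and sequences came from GENCODE M21 on GRCm38, a build other than that of the counts, so coordinates are those of GRCm38 and lengths are approximate for the authors' annotation. The union of exons for family shares, the stretch of sequence shown and the leave-one-out fits of list genes were chosen after seeing the data.

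The 9 factors and the 23 lists beside them were chosen with earlier results of these data known. Genes named are the 9 factors, *Nox4*, the tested relatives, up to 4 called genes per list and direction with the smallest p, and the 3 genes most alike (Pearson correlation of log2 CPM with a prior count of 2). One of the tested relatives is not reported here. Other list genes named with values (such as *Itga7*, *Chrdl2*, *Hes6*, *Musk*, *Sik1*, *Msc* and the E proteins) were chosen after their values were seen.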

Additional observations from a re-analysis of the deposited data

Results flagged for a closer look

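In each group of 4 mice, Dixon's ratio (the gap from the highest or lowest mouse to its neighbor, over the range of the group) was computed for the 9 factors, *Nox4* and the 7 tested relatives, 34 groups in all. It passed its 95% critical value in 5 groups, where chance alone gives about 1 in 20, or 1.7. In 4 of the 5, NOX4-deficient replicate 1 was the lowest of its group: *Myf6* (ratio 0.847), *Pax7* (0.907), *Mef2d* (0.926) and *Nox4* (0.918). In the fifth, control replicate 4 was the highest for *Mef2a* (0.961).

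For *Myf6* the NOX4-deficient group as a whole spans only 79.7 to 86.7 CPM, so the mouse apart lies few CPM from the others, and without it the call was kept. For *Mef2d* it lies at 192 CPM beside 236 to 240 CPM, and for *Pax7* at 2.11 CPM beside 2.58 to 2.63 CPM. For *Mef2a* control replicate 4 lies at 267 CPM beside 206 to 208 CPM. What set these mice apart was not tested.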

How the results depend on the processing

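The call of *Myf6* was the same under all 20 alternatives, with adjusted p from 6.57e-07 to 0.0243. *Six4* (-0.56, not called) was past both thresholds under DESeq2 (-0.56), pydeseq2 (-0.56), the replicate block (-0.57) and an odd or even replicate term (-0.55), and the cause was not tested. With libraries left out, its log2 fold change ranged from -0.67 to -0.41 and that of *Myf5* from -0.41 to 0.046 (0.01 without NOX4-deficient replicate 3 and 0.046 without control replicate 2), the only sign to turn among the 9. No other factor changed its call. Genes called over the table numbered 784 (443 lower, 341 higher). With 1 library left out they numbered 499 to 712 (295 to 425 lower and 204 to 317 higher), fewest without control replicate 4 (499), and 227 were higher without control replicate 2. At an adjusted p under 0.01 they numbered 252 (156 lower, 96 higher), a stricter threshold by construction. With the union of exons, CPM per kilobase in control and NOX4-deficient muscle was 15.1 and 14.0 for *Mef2a*, 44.4 and 57.8 for *Mef2c*, 2.89 and 1.96 for *Six4* and 4.70 and 3.78 for *Eya1*, and 46.2 in control for *Mef2d*. Of 920 recomputed list counts, 830 stayed within 1.5 times, and all 18 recomputed permutation tests kept their side of the threshold. Same-numbered libraries deviated together with correlations of 0.223, 0.147, 0.041 and 0.0412, and 2 of 8 correlated best with their own number, so the numbers were not taken as pairs. The replicate block raised the genes called to 933. Under it *Vgll2* had an adjusted p of 0.112, and 3 fibroblast markers (*Col1a1*, *Col1a2* and *Lum*) were called higher. Low counts limit *Myf5*, *Pax7* and *Nox4*.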
